A study of Mus musculus with 5 samples.

Results

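Within the knees of Pdgfra gain-of-function (GOF) mouse embryos at E14.5, 15 regions of inter-joint space were compared with 26 regions of inter-joint perichondrium, 41 of the 93 regions from GOF animals in a series that also holds 86 control regions. The regions were chosen by the tags of the deposited table, and each belongs to 1 of 2 GOF animals. GOF replicate 1 gave 7 space and 14 perichondrium regions, and GOF replicate 2 gave 8 and 12. Both genotypes of the series carry Prrx1-Cre, a Cre driver active in limb bud mesenchyme, and in the GOF animals it is combined with an activating allele of Pdgfra, which encodes a PDGF receptor found on mesenchymal cells. Controls carry the driver alone. The 2 control animals, with 18 space and 35 perichondrium regions, served to test whether a difference was larger in one genotype, and they also enter the estimate of the spread behind the GOF p values. RNA was read by GeoMx, which counts probe barcodes released by light from regions drawn on a stained section. Sections were stained for Sox9 protein, a chondrocyte factor, and space regions carry a Sox9-low interzone tag, so the Sox9 transcript is no finding here. No label defines the tags, and how many sections or knees an animal contributed is not given.

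A synovial joint forms where mesenchymal cells of the interzone separate 2 cartilage elements. Interzone cells lower their cartilage genes and express joint genes such as Gdf5, a growth factor of the BMP family, and Osr2, a transcription factor of developing joints. The perichondrium is the fibrous sheath of a cartilage element, and its inner cells can become chondrocytes. A region holds many cells of several types, and fewer cells of a type cannot be told apart from less RNA per cell.

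Recovered total counts per region ran from 110775 to 512653 in GOF space and from 76244 to 617062 in GOF perichondrium, and the median value of the negative probe, which measures background, was between 2.09 and 3.06 in the 4 combinations of GOF animal and region type. A target with a level near 3 is therefore close to background. The target mCherry/tdTomato, a fluorescent reporter, had levels of 311 to 463 in the GOF averages and of 13.6 to 16.1 in the control averages, so the reporter separated the genotypes as labelled. A level here is the average of log2(value + 1) over an animal's regions of a type, turned back to the linear scale of the deposited values, and a difference is space minus perichondrium within an animal on the log2(value + 1) scale.

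The differences were tested for all 19346 targets. In the fit chosen for the comparison, limma on 1 average per animal and region type with the animal as a block, no target passed an adjusted p of 0.05 (0% called), 0.553% had an unadjusted p below 0.05, and the lowest adjusted p was 0.203, for Igfbp3. That fit gives the same weight to averages of 1 region and of 19. Other planned fits of the same comparison called more targets. With each average weighted by its number of regions, limma called 0.941% of the targets, of which 76 (0.393% of all) were higher in space and the rest (0.548% of all) lower. These weights take the variance of an average to fall in proportion to its number of regions, as if an animal's regions were independent replicates. They leave no room for a variance between animals that stays the same however many regions are averaged. The SE and p values of that fit rest on this assumption. edgeR's quasi-likelihood test on recovered counts called 0.801% and DESeq2 called 81 (0.419% of all targets), 13 higher and 68 lower. DESeq2 gave no adjusted p for 16128 of the targets, so its share is not on the same footing as the others. The region-weighted fit is used for calls below, a choice made after the first fit had called nothing, so "called", "higher" and "lower" refer to an adjusted p below 0.05 in that fit. Of its calls, edgeR shared 48 higher and 75 lower ones, and every call of the region-weighted fit had the same sign in both GOF animals. The calls depended on GOF replicate 2: 0.863% of targets were called without GOF replicate 1 and 17 targets (0.0879%) without GOF replicate 2, 0.734% and 0.75% without control replicates 1 and 2, and 24 (0.124%) when the animal was not a block.

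Igfbp3, which encodes a secreted binding protein of insulin-like growth factors (chr11:7206086-7215498, GRCm38), had the largest difference among the named targets. Its level was 13.4 in perichondrium and 51.6 in space of GOF replicate 1, and 22.5 and 82.2 in GOF replicate 2. Space was thus higher in both animals, 3.59-fold (log2 1.84, SE 0.31 in the unweighted fit; 1.86, SE 0.13, adjusted p = 2.39e-21 in the region-weighted limma fit). By region, Igfbp3 ran from 30.8 to 146.8 in the 7 space regions of GOF replicate 1, where 4 lay above the highest of the 14 perichondrium regions (47.7). In GOF replicate 2 it ran from 40.2 to 170.4 in space, and 6 of the 8 regions lay above the highest perichondrium region (50.04). It stayed below an adjusted p of 0.05 in the region-weighted fit without any 1 of the 4 animals and without the block. Control knees also had more Igfbp3 in space, from 11.9 to 23.2 and from 16.5 to 29.6, a log2 difference of 0.86. The GOF difference exceeded the control one by 0.99 (SE 0.17, adjusted p = 2.67e-04 in the region-weighted limma fit), but edgeR gave an adjusted p of 0.0992 for this comparison of genotypes, and the region-weighted fit gave 0.0777 without control replicate 2.

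**Figure D1:**
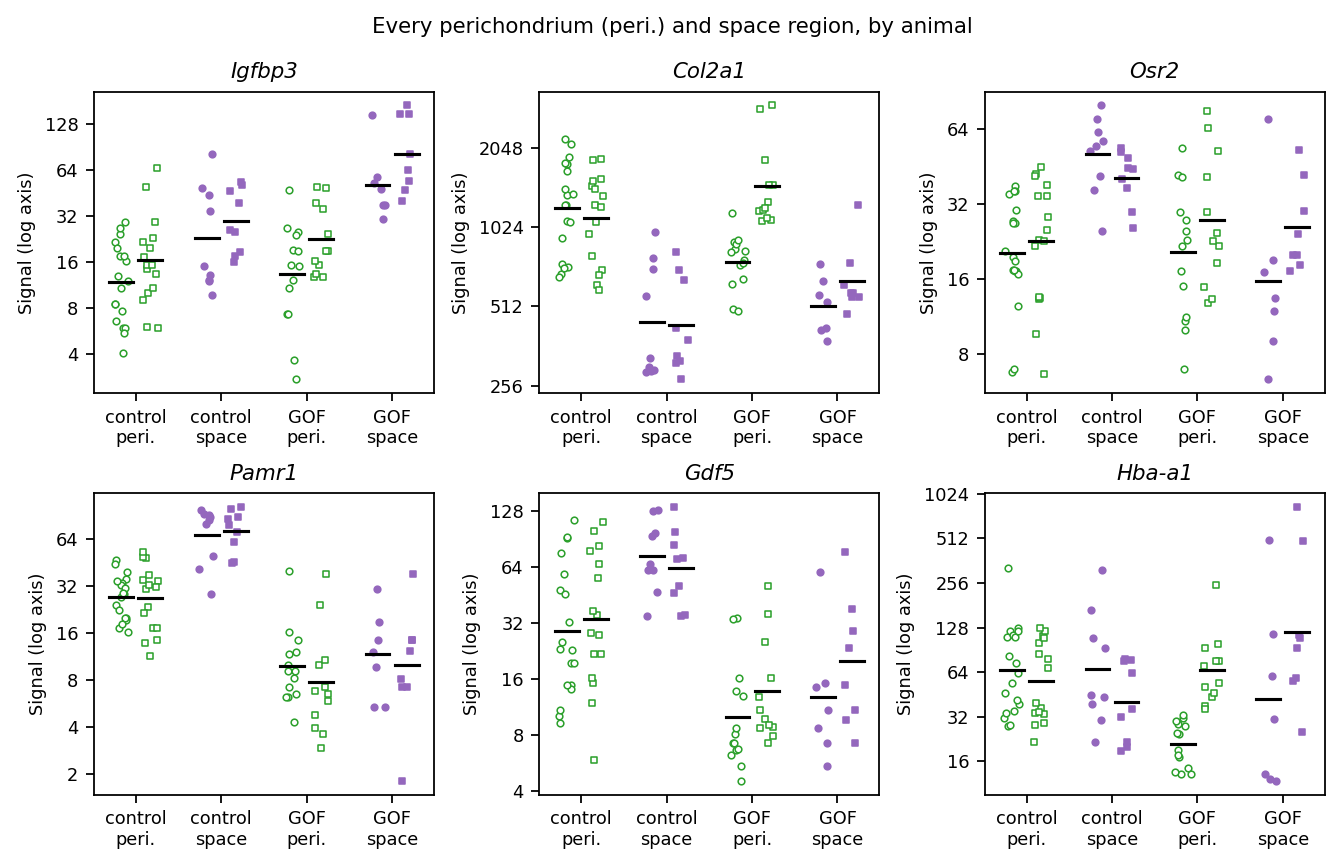
Signal (log axis) of 6 targets in every perichondrium (open green) and space (filled purple) region, with circles for replicate 1 and squares for replicate 2 of each genotype and bars for the animal's level. Igfbp3 was higher in GOF space in both animals and Col2a1 lower, while Osr2, Pamr1 and Gdf5 were higher in space in the controls and overlapped between the region types in GOF knees.

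Cartilage genes were lower in space. Of the 27 measured chondrocyte genes, 26 had a negative difference, with a median of -0.57 against 0.03 over all targets, and 15 were called lower and 0 higher, where 0.548% of all targets were called lower. One of the 15 is Sox9, and space regions carry a Sox9-low tag. How far that choice of regions set the values of the other chondrocyte genes was not tested. Col2a1, the main collagen of cartilage (chr15:97975602-98004724), fell from 758 in perichondrium to 515 in space of GOF replicate 1 and from 1464 to 640 in GOF replicate 2. That is a log2 difference of -0.87 (SE 0.08, adjusted p = 1.91e-13, region-weighted limma fit). In GOF replicate 2, 7 of 8 space regions lay below the lowest of the 12 perichondrium regions (1084). In GOF replicate 1, 3 of 7 lay below the lowest of 14 (494.3), so the region types overlapped more there. The difference was smaller in GOF replicate 1 for the list as a whole, with a median of -0.30 against -0.83 in GOF replicate 2. Without GOF replicate 2 the region-weighted fit called 4 of the 27 members, and without GOF replicate 1 it called 17. In control knees the median was -0.94 and 21 were called lower, where 374 of all 19346 targets were. Col2a1 differed by -1.39 in control knees. The difference between genotypes was called for 2 of the 27, where 0.145% of all targets were called, and for 0 by edgeR. It was 0.53 for Col2a1 (adjusted p = 0.00785) and 0.91 for Cytl1, another list member (adjusted p = 0.0015), in the region-weighted limma fit.

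Other matrix genes of cartilage behaved similarly. Matn4, a matrilin of the cartilage matrix, fell from 101.4 to 56.1 and from 208.5 to 95.5 in GOF replicates 1 and 2. Acan, the core protein of aggrecan, fell from 64.4 to 38.7 and from 119.6 to 60.3. Hapln1, the link protein that ties aggrecan to hyaluronan, fell from 58.2 to 39.7 and from 95.2 to 42.01. Col11a2 and Col27a1, fibrillar collagens of cartilage, had log2 differences of -0.78 and -0.63, and Wwp2, a ubiquitin ligase gene that hosts miR-140, one of -0.82. Papss2, which makes the sulfate donor for proteoglycans, had one of -0.74. All of these were called lower, and each was lower in space in both animals. The summed level of 5 chondrocyte markers was 1000 in perichondrium and 666 in space of GOF replicate 1, and 1927 and 857 in GOF replicate 2. How much cartilage each perichondrium region took in was not tested.

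Several genes outside the chondrocyte list were lower as well, and in GOF 4 of them had a higher mean level in border-zone cartilage than in either region type compared (Fry 44.4, Cspg4 84.98, Rap1gap 24.9 and Ptch1 62.2). Fry, which encodes a microtubule-binding protein, fell from 19.2 to 11.5 and from 25.9 to 11.2. Cspg4, which encodes the NG2 proteoglycan of pericytes and immature mesenchyme, fell from 45.2 to 29.9 and from 56.1 to 27.9. Rap1gap, which inactivates the small GTPase Rap1, had a log2 difference of -0.67. In controls the log2 difference was -0.90 for Fry, -0.72 for Cspg4 and -0.47 for Rap1gap. No genotype difference was called for Fry, Cspg4 or Rap1gap. Ptch1, the hedgehog receptor and a hedgehog target, fell from 42.99 to 33.8 and from 52.6 to 26.8, and Gas1, a hedgehog co-receptor, was the 1 of 13 hedgehog genes called higher (110.7 to 130.6 and 134.9 to 193.7). Of all targets 0.393% were called higher and 0.548% lower, and edgeR called 0 of the 13 higher. In controls 3 of the 13 were called higher and 3 lower, where 3.17% of all targets were called. Without GOF replicate 2 none of the 13 was called.

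Of 27 proliferation genes, 3 were called lower, Mki67, Cdk1 and Ccnd1, where 0.548% of all targets were called lower, and 25 had a negative difference (median -0.27). In control knees the median was -0.26 and 10 were called lower, where 374 of all 19346 targets were. Mki67, a marker of cycling cells, fell from 36.9 to 28.02 and from 49.5 to 35.7. Cdk1, the mitotic kinase, fell from 21.3 to 14.1 and from 24.1 to 18.1. In the region-weighted fit none of the 27 was called without GOF replicate 2, and 1 was called without GOF replicate 1 or without either control replicate. Cenpa, the centromeric histone, also fell, from 32.1 to 22.8 and from 40.2 to 23.5.

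**Figure D2:**
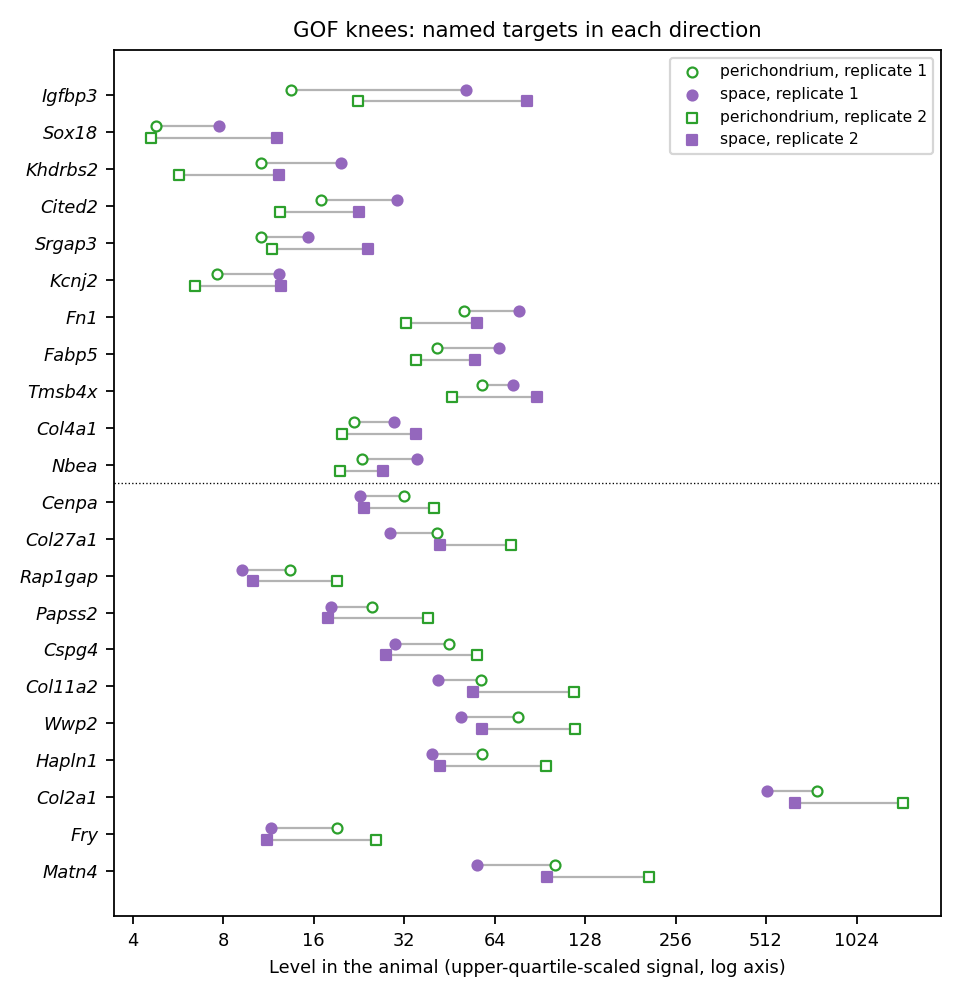
Level (log axis) in perichondrium (open green) and space (filled purple) of GOF replicate 1 (circles) and 2 (squares) for 11 targets in each direction, among the 12 of smallest p, joined within an animal. Targets were kept only if the difference had the same sign in both animals. By that rule every target above the dotted line, where Igfbp3 has the widest gap, is higher in space in both, and every target below it is lower.

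Among the targets higher in space, Fn1, the fibronectin gene, rose from 50.8 to 77.4 and from 32.5 to 56.1. Tmsb4x, which binds actin monomers, rose from 58.3 to 73.7 and from 46.1 to 88.8. Cited2, a transcriptional co-regulator, rose from 16.95 to 30.4 and from 12.4 to 22.6. Col4a1, a basement membrane collagen, had a log2 difference of 0.61 (1.52-fold). Khdrbs2, an RNA-binding protein gene, rose from 10.7 to 19.8 and from 5.71 to 12.3, and Srgap3, Nbea and Kcnj2 had differences of 0.74, 0.52 and 0.74. Control knees had a log2 difference of the same sign for Fn1 (0.63), Tmsb4x (0.48), Cited2 (0.48) and Nbea (0.50). The control difference was 0.45 for Srgap3, 0.40 for Khdrbs2, 0.15 for Kcnj2 and 0.05 for Col4a1. No genotype difference was called for any of these targets.

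Tendon and ligament genes split. Of 22 genes 3 were called higher, among them Mkx and Scx, transcription factors of tendon cells, and Col14a1, a collagen of dense fibrous tissue, was called lower, where 0.393% of all targets were called higher and 0.548% lower. None was called higher without GOF replicate 2, and Col14a1 was not called once any 1 animal was left out. Mkx rose from 10.5 to 18.1 and from 10.1 to 21.2, and Scx from 14.8 to 22.3 and from 15.9 to 25.6. The median of the list was 0.02, and in controls the difference was 0.96 for Mkx and 0.55 for Scx. Without GOF replicate 2 the adjusted p was 0.0642 for Mkx and 0.48 for Scx in the region-weighted limma fit, and Scx was at 0.0708 without GOF replicate 1 and at 0.0896 and 0.0964 without control replicates 1 and 2.

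Endothelial genes had a median difference of 0.41, and 15 of 16 were positive, against 0.01 in control knees. Cdh5, Flt1, Sox18 and Cldn5 were called higher and Erg lower, 5 of 16, where 0.941% of all targets were called. Cdh5, the endothelial cadherin, rose from 8.24 to 12.3 and from 6.12 to 11.2, and Sox18, an endothelial transcription factor, from 4.78 to 7.78 and from 4.62 to 12.1. These levels lie within a few times the negative probe value. Erg, which is expressed by endothelium and by articular chondrocytes, fell from 18.6 to 12.8 and from 23.2 to 13.4. In the region-weighted fit none of the 16 was called without GOF replicate 2, and 1 was called higher and 1 lower without GOF replicate 1, and 3 higher and 1 lower without either control replicate. Without the block, 1 was called higher. No endothelial gene was called for the difference between genotypes.

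Of 8 measured erythroid genes 1, Hba-a1, a globin of red blood cells, was called higher in GOF space (3 by edgeR; 0.393% of all targets in the region-weighted fit), and the list's median was 0.15, with 0.16 in GOF replicate 1 and 0.01 in GOF replicate 2. Hba-a1 rose from 20.9 to 41.96 and from 66.5 to 119.2, and Hbb-b2, another globin that is not in the list, from 3.42 to 7.91 and from 14.1 to 24.7. The rise rested on part of the regions: Hba-a1 reached 500 in 1 space region of GOF replicate 1 and 834 in 1 of GOF replicate 2, while the lowest space regions, at 11.8 and 25.4, were below every perichondrium region of their animal. The summed level of 4 red blood cell markers was 37.2 and 109.8 in perichondrium and 73.6 and 201.7 in space. In control perichondrium it was 112.3 and 89.6, so the perichondrium of GOF replicate 1 was lowest among the 4 animals. In control space it was 118.3 and 70.2. In the region-weighted limma fit the genotype difference was called for Hba-a1 (1.14, adjusted p = 4.54e-05), 1 of the 8, where 0.145% of all targets were called. It was called there also for Hbb-b1 (1.04, adjusted p = 0.00626), a globin outside the list. edgeR gave adjusted p of 0.0805 for Hba-a1 and 0.115 for Hbb-b1. Summed endothelial markers were 23.7 and 18.2 in perichondrium and 31.3 and 28.9 in space, and summed macrophage markers 14.2 and 15.3 against 18.3 and 18.4; none of the 13 macrophage genes was called. The part that blood or vessels in the drawn regions had in the other differences was not tested.

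**Figure D3:**
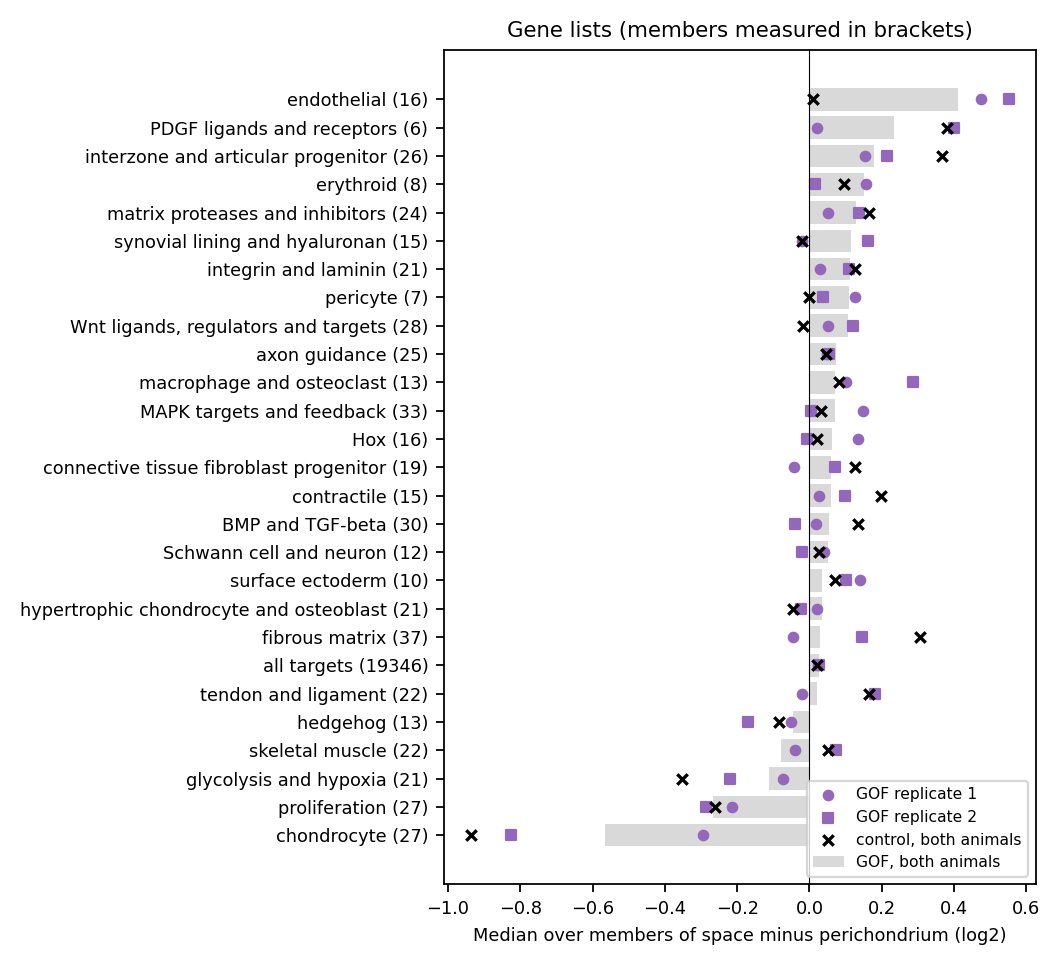
Median over the measured members of 26 gene lists, and of all targets, of the log2 difference of space minus perichondrium, as bars for GOF, symbols for each GOF animal and crosses for control. Chondrocyte (-0.57) and proliferation (-0.27) genes lie lowest and endothelial genes (0.41) highest in GOF.

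The 3 joint genes that mark inter-joint space were not called between the region types in GOF knees. Osr2 (chr15:35296098-35303305) was 20.5 in perichondrium and 15.6 in space of GOF replicate 1, and 27.5 and 25.9 in GOF replicate 2. In controls it was 20.4 and 50.4, and 22.7 and 40.6. Pamr1, a secreted protein with protease-like domains (chr2:102549939-102643041), was 9.91 and 11.9, and 7.87 and 10.1, in GOF, against 27.3 and 68.1, and 26.9 and 72.9, in controls. Gdf5 (chr2:155941023-155945367) was 10.1 and 12.8, and 13.8 and 19.98, in GOF, against 29.1 and 73.9, and 33.8 and 63.7, in controls. The summed level of the 3 genes was 40.5 in perichondrium and 40.3 in space of GOF replicate 1, 49.1 and 55.9 in GOF replicate 2, 76.8 and 192.4 in control replicate 1, and 83.3 and 177.2 in control replicate 2. These markers thus did not set space apart from perichondrium in GOF knees, and the regions are named here by their tags alone.

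The difference between genotypes was tested directly, as the GOF difference minus the control difference. The unweighted fit called 0 targets, with 27 at an unadjusted p below 0.05. The region-weighted fit called 28 (0.145%), edgeR 19 (0.0982%), 10 of them shared, and DESeq2 0. For Osr2 the value was -1.26 (SE 0.20, adjusted p = 4.54e-05) and for Pamr1 -1.08 (SE 0.22, adjusted p = 0.00551) in the region-weighted limma fit, with edgeR adjusted p of 8.22e-04 and 0.00117. For Gdf5 it was -0.68 (SE 0.21), with an adjusted p of 0.300 in the region-weighted limma fit, so a genotype difference was not called. The counts rest on few animals: the region-weighted fit called 14 without GOF replicate 1, 41 without GOF replicate 2, 3 without either control replicate and 0 without the block. For Osr2 the adjusted p was 0.162 without control replicate 1, and for Pamr1 0.196 without control replicate 2 and 0.124 without GOF replicate 1.

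Of the 26 interzone and articular progenitor genes, 0 were called higher in GOF space and 1, Erg, lower, where 0.393% of all targets were called higher and 0.548% lower. In control knees 11 were called higher and 1 lower, where 3.17% of all targets were called, 1.24% higher. The list's median was 0.18 in GOF and 0.37 in controls. The difference between genotypes was called for 3 of the 26, Osr2, Pamr1 and Htra1, where 0.145% of all targets were called. By edgeR it was called for 2 of the 26 and for 0.0982% of all targets, and the list as a whole was not tested for it. Htra1, a secreted serine protease named here after its values were seen, was 21.3 and 23.6, and 24.6 and 35.7, in GOF perichondrium and space, and 38.8 and 97.3, and 48.2 and 107.8, in controls. Lgr5, the R-spondin receptor, had levels of 6.38 and 8.78, and 4.64 and 7.78, in GOF, and of 15.2 and 26.1, and 14.9 and 27.9, in controls. Space was higher in all 4 animals, and the Lgr5 difference between genotypes was not called (-0.29, adjusted p = 0.917, region-weighted limma fit).

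Of 37 fibrous matrix genes, 1 was called higher in GOF, Fn1 (0.393% of all targets), and 2 lower, Col14a1 and Fbln2 (0.548%), with a median of 0.03. edgeR called 0 of the 37 higher and 1 lower in GOF, where it called 0.801% of all targets. Its adjusted p was 0.0956 for Fn1 and 0.183 for Fbln2. In controls 18 were called higher (1.24% of all targets; 11 by edgeR) and 1 lower, with a median of 0.30. The difference between genotypes was called for 3 of the 37, Col5a2, Col8a2 and Fbln2, where 0.145% of all targets were called, and for 1 by edgeR; the list as a whole was not tested for it. Col8a2, a short-chain collagen, was 16.01 and 13.8, and 20.8 and 25.7, in GOF and 25.1 and 54.1, and 30.7 and 58.7, in controls. Col5a2, a chain of the fibrillar collagen V, was 43.8 and 52.7, and 40.6 and 48.5, against 58.5 and 108.5, and 67.1 and 113.1, in controls. Col8a2 was called also by edgeR (adjusted p = 0.00137) and Col5a2 not (adjusted p = 0.226). Emilin3, an elastin microfibril interfacer, fell in GOF space from 14.98 to 11.5 and from 19.9 to 10.8 and was 21.7 and 24.1, and 24.3 and 29.4, in controls.

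Some genes that fell in control space had differences nearer 0 in GOF. Among the 27 proliferation genes the region-weighted fit called Ccnd1 and Ccnd2 for the difference between genotypes, where 0.145% of all targets were called, and edgeR called 0. Ccnd1, cyclin D1, fell from 76.8 to 60.995 and from 107.4 to 71.5 in GOF and from 90.5 to 34.8 and from 109.3 to 46.5 in controls, a genotype difference of 0.84 (SE 0.13, adjusted p = 4.54e-05, region-weighted limma fit). Ccnd2, cyclin D2, was 129.99 and 117.4, and 132.6 and 140.3, in GOF and fell from 96.0045 to 51.6 and from 98.5 to 59.7 in controls. Hmga2, a chromatin protein of growing embryonic tissue, and Peg10, an imprinted retrotransposon-derived gene, had control differences of -1.13 and -0.75 and GOF differences of -0.46 and -0.17. For these 4 genes edgeR gave adjusted p of 0.29, 0.119, 0.501 and 0.56. Fabp5, a fatty acid carrier, was called by both tools: it rose from 41.2 to 66.1 and from 35.04 to 55.1 in GOF and was 35.1 and 33.5, and 44.7 and 36.9, in controls. Of the 28 genotype calls, 18 had the larger difference in controls and 10 in GOF.

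**Figure D4:**
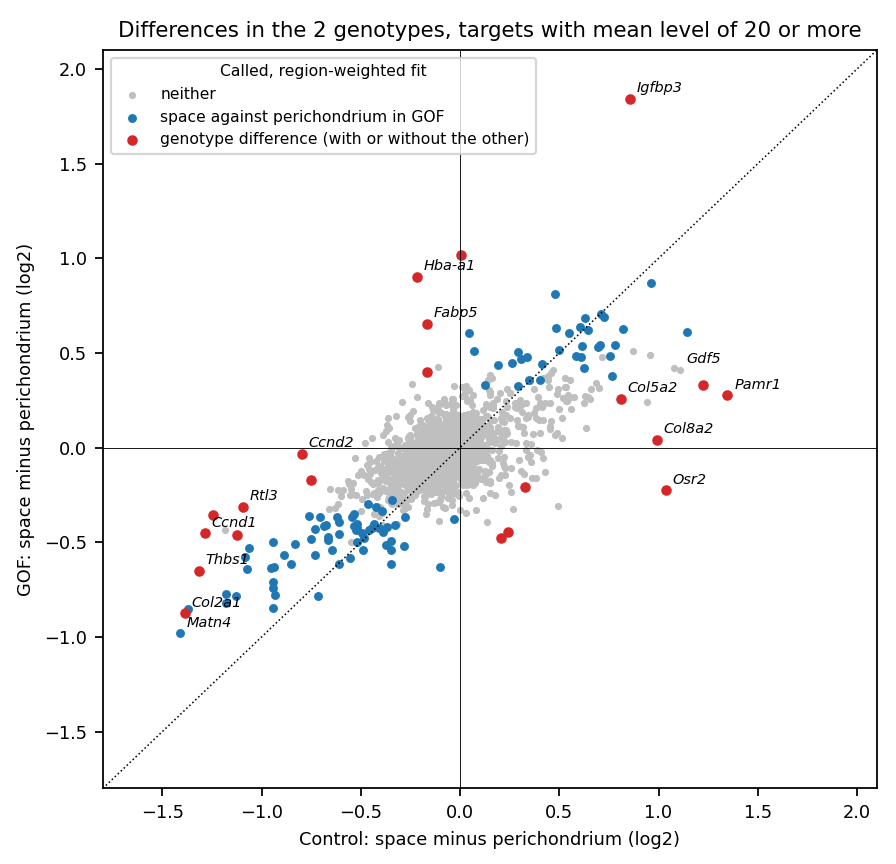
Difference of space minus perichondrium (log2) in control (horizontal axis) and GOF knees (vertical axis) for the 1567 targets with a mean level of at least 20, with targets called in the region-weighted fit in blue (GOF difference) or red (genotype difference) and equal differences on the dotted line. Osr2, Pamr1 and Col8a2 lie far right and near 0 on the vertical axis, and Igfbp3 lies above the line.

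The targets called in both genotypes all had the same sign, 0 the other, and they made up 64.8% of the GOF calls and 19.2% of the 613 control calls. Of the 28 targets called for the difference between genotypes, 14 had differences of opposite sign. Across the 1567 targets the differences of the 2 GOF animals correlated with r = 0.578 and those of the 2 control animals with r = 0.871, as a description across targets that share probes and scaling. The SD of the differences across these targets was 0.197 and 0.264 in GOF replicates 1 and 2 and 0.306 and 0.274 in control replicates 1 and 2.

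The receptor itself did not separate the region types in GOF. Pdgfra was 86.5 and 82.4, and 81.2 and 100.3, in GOF and 67.4 and 92.9, and 77.4 and 106.2, in controls. Its genotype difference was not called (-0.33, adjusted p = 0.619, region-weighted limma fit). Of 6 PDGF ligands and receptors 0 were called in GOF. In controls 2 of the 6 were called higher, where 1.24% of all targets were. The reporter had a difference of 0.16 in GOF. Of 33 MAPK targets and feedback genes, Spry1 and Ier3 were called higher and Ccnd1 lower, where 0.941% of all targets were called, and none of the 33 was called without GOF replicate 2. Spry1, a feedback inhibitor of receptor tyrosine kinase signalling, rose from 20.2 to 28.2 and from 13.99 to 27.3, and Ier3, an immediate early gene, from 6.58 to 9.60 and from 4.71 to 10.0. Spry1 differed by 0.48 and Ier3 by 0.74 in controls.

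The other lists gave at most 2 calls each, where 0.941% of all targets were called. Id3, a BMP target, was the 1 of 30 BMP and TGF-beta genes called, lower, and Meox2 the 1 of 19 connective tissue progenitor genes, higher. Plxnd1, a semaphorin receptor, was 1 of 25 axon guidance genes and Lamb1, a laminin chain, 1 of 21 integrin and laminin genes, both higher. Ccn1, a matricellular protein, was 1 of 15 contractile genes, lower. Of 7 pericyte genes Mcam was higher and Cspg4 lower. Of these single calls, Cspg4 alone held without each animal in turn. Without GOF replicate 2 no other was called, Meox2 and Plxnd1 were not called without GOF replicate 1, Mcam was not called once any 1 animal was left out, and Id3 and Ccn1 were not called without either control replicate. By edgeR, Id3, Meox2, Plxnd1 and Mcam were not called. In the region-weighted fit none was called among Wnt, Hox, matrix protease, synovial lining, hypertrophic and osteoblast, glycolysis and hypoxia, skeletal muscle, Schwann cell and neuron, or surface ectoderm genes.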

How the data were processed

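The deposited signal is on a linear scale: per the file headers, the authors scaled the counts of each region to a common upper quartile. The upper quartile was 10.9 in all 179 regions, and 99.98% of values were whole multiples of 1 step within 0.01 of a count, so counts were recovered for edgeR and DESeq2. The submitters' processing notes name Seurat and mm10 without a role; the sources used here give no counting pipeline. All 19346 targets other than the negative probe were tested.

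Animals are the replicates: each animal and region type gave 1 mean of log2(value + 1), and limma 3.58.1 in R 4.3.3 (lmFit, eBayes with trend) was fitted to all 4 animals and 6 region types with the animal as a fixed block, which pairs space with perichondrium of the same animal. P values were adjusted by Benjamini-Hochberg over all targets, and 0.05 was the threshold. Permuting 2 animals against 2 cannot reach 0.05, and moderated p values rest on the spread pooled over types and targets. In the region-weighted fit they also take an animal's regions as independent. Reference cartilage and mesenchyme rest on 1 region per animal. That fit called nothing (107 targets had an unadjusted p below 0.05), and only then was a region-weighted fit taken for calls (182, 76 higher and 106 lower; edgeR 155, DESeq2 81), out of 20 other fits set down beforehand for the first comparison, with edgeR 4.0.16 and DESeq2 1.42.0 beside it; 11 further settings of the weighted fit were added after its results were seen. The code was tested on simulated data.

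Named targets were, per comparison and direction, the 12 with the largest called difference, filled by smallest p where fewer were called, with the same sign in both GOF animals and a level of at least 8; Osr2, Pamr1, Gdf5, Pdgfra and the reporter; and, per list, called members and up to 4 with the largest difference. Since the first fit called nothing, p decided all of the first kind. Cdh5, Htra1, Rtl3, Hbb-b2 and Rnf151 were named after their values were seen. Members, lists and rule were chosen with earlier results of these data known. Red blood cell markers used Hbb-b1 and Hbb-b2 in place of Hbb-bs and Hbb-bt, which have no target of that name. A few named targets are not reported here. Gene positions are RefSeq's on GRCm38.p6.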

Additional observations from a re-analysis of the deposited data

Results flagged for a closer look

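For 10 targets the difference between space and perichondrium differed between GOF and control knees in both the region-weighted limma fit and edgeR, and in neither the unweighted limma fit nor DESeq2. The values here are the GOF difference minus the control difference on the log2(value + 1) scale from the unweighted fit. It was -1.26 for Osr2, -1.12 for Fjx1, -1.07 for Pamr1, -0.95 for Col8a2, -0.86 for Add3 and -0.80 for Emilin3. It was 0.78 for Rtl3, 0.82 for Fabp5, 1.03 for Hbb-b2 and 1.17 for Rnf151. Fjx1, a mouse homolog of the fly gene four-jointed, was 8.51 and 6.22, and 9.66 and 11.6, in GOF perichondrium and space, and 12.9 and 27.4, and 11.1 and 24.2, in controls. Add3, an adducin of the membrane skeleton, was 10.03 and 9.91, and 8.80 and 8.14, in GOF and 13.2 and 22.2, and 13.2 and 25.3, in controls. Rtl3, a retrotransposon-derived gene, was 70.7 and 61.4, and 68.5 and 50.7, in GOF and 38.1 and 17.2, and 31.9 and 14.503, in controls. Rnf151 lies near background, at 3.16 and 6.44, and 3.33 and 6.15, in GOF and 4.96 and 3.41, and 4.78 and 3.59, in controls.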

How the results depend on the processing

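The values here are percentages of targets called. In GOF the unweighted fit called 0, with 0.00517 under quantile normalization, 1.4 with joint region types only, 0.941 weighted by number of regions, 0.801 with edgeR and 0.419 with DESeq2; its other settings, leaving out each animal and no replicate block included, called 0. For the difference between genotypes it called 0, with 0.00517 under quantile normalization, 0.191 with joint region types only, 0.145 weighted by regions and 0.0982 with edgeR, and 0 under no replicate block. In the region-weighted fit, added settings gave 0.0879 to 0.863 without 1 animal in GOF, and 0.0155 to 0.212 for the difference between genotypes (0.0724 without GOF replicate 1); with no replicate block they gave 0.124 and 0, and with joint region types only the second was 0.279. The cause of these shifts was not tested. Some differences near 0 in GOF turned sign. Fjx1 was 0.05 with the median over regions, 0.25 without GOF replicate 1 and -0.40 without GOF replicate 2. Col8a2 was 0.29 and -0.21 without those replicates, -0.04 with edgeR and -0.05 with DESeq2. Add3 was 0.15 with the median over regions and 0.01 without interzone-tagged perichondrium. Peg10 was -0.36 and 0.02 without GOF replicates 1 and 2. Ccnd2 was 0.08 and -0.15 without them, 0.01 with the median over regions, 0.11 under quantile normalization and 0.01 without interzone-tagged perichondrium. Pdgfra was 0.30 and -0.07 without them and -0.02 with the median over regions. Of 1833 values of named targets, 1609 kept sign and side of the threshold and 210 passed it anew. Each value was set against the unweighted fit, which called 0 targets, so no call could be lost. These totals therefore do not measure how stable the calls of the region-weighted fit are. Counting depth limits targets near the negative probe.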
